A study of Mus musculus with 107 samples.

Results

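Cadherins and related cell adhesion genes were followed across the series. They are 10 of the 27179 genes counted in every library: Cdh1, Cdh2, Cdh4, Cdh6, Cdh11, Cdh13, Cdh20 and Cdh26 from the cadherin superfamily, with Epcam and Ncam1. They were found by their symbols, and all 10 were matched to mouse Entrez identifiers. The set was chosen by the measured levels of these genes in the same libraries, above all their exchange between ESC and NPC, and Cdh26 was selected on its rise with serum, so its serum levels are given here as a description and without a test. The series holds 107 libraries in 23 conditions, all C57BL/6 and all carrying the RiboTag allele, an HA tag on a ribosomal protein that lets ribosome-bound RNA be pulled down from the cells that express it. Embryonic stem cells (ESC, n = 4) came from 1 female line, and every neural progenitor cell (NPC) was derived from it, so the NPC conditions share 1 source line. NPC cultures were sampled after 5, 15 or 30 passages (named NPC P5, NPC P15 and NPC P30, with 4 libraries in each), and further derivations after 15 passages gave NPC P15 D2 (n = 6) and NPC P15 D3 (n = 4). For differentiation, NPC were held for 4 days with EGF and FGF lowered and with nothing added (SPONT), 100 ng/ml CNTF, 100 ng/ml IGF-1, 1, 5, 10 or 20% fetal bovine serum (FBS), or 100 ng/ml CNTF with 5% FBS (n = 4 each). Before grafting, NPC were passed through a pipette in culture medium (NPC media), in the hydrogel carrier DCH (NPC DCH), or after 4 h in DCH (NPC DCH 4 h) (n = 5 each). Grafts in DCH were recovered from mouse thoracic spinal cord at 14 days from uninjured cord, from crush injury (SCI) and from double crush injury (dSCI), and at 5 days from SCI (n = 5 each). Host astrocytes came from Gfap-Cre RiboTag mice that were healthy (n = 9) or 14 days after SCI (n = 5), so they are the cells in which that promoter drives Cre.

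Cadherins are calcium-dependent adhesion proteins that bind the same or a related cadherin on the neighbouring cell and are tied to the actin skeleton through catenins. E-cadherin (Cdh1) and the epithelial cell adhesion molecule Epcam hold together epithelia and pluripotent cells, whereas N-cadherin (Cdh2) and the immunoglobulin-type adhesion molecule Ncam1 are carried by neural tissue, and the exchange of one set for the other accompanies neural induction. R-cadherin (Cdh4) is a classical cadherin close to Cdh2. Cdh6, Cdh11 and Cdh20 are type II cadherins, of which Cdh11 is best known from mesenchymal cells. T-cadherin (Cdh13) is held in the membrane by a lipid anchor and has no cytoplasmic tail. Cdh26 is a less studied cadherin.

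Levels are given as CPM (a gene's share of its library's counts, scaled to a common total), as mean ± SD, and levels of different genes are compared only as FPKM (CPM per kilobase of exon). Changes are log2 fold changes (log2FC ± SE) from edgeR's quasi-likelihood test after TMM scaling, and a gene was called at a Benjamini-Hochberg adjusted p under 0.01 over all genes tested. For the 10 genes, a median count under 10 in a group compared left values but no test and no place in the counts. Such a gene passed the filter on low counts, if at all, through another group. This rule was not applied to the wider lists of adhesion genes, which were counted over every gene that passed the filter. Nor was it applied to the comparison of NPC with ESC, which is a description. The study describes 5 mice per graft condition and independent repeats of the cultures, but the labels tie no library to a culture or animal, so p-values measure the spread between these samples. Paired-end libraries held 30473157–147764968 counts. The 11 single-read libraries, all of NPC P15 D2 and NPC SCI 5 d, held 12286240–18085106. SPONT replicate 2 stood apart: it was the lowest of the 4 SPONT libraries for 8 of the 10 genes and not for Cdh1 or Epcam. Results of the 10 genes that use SPONT are given with and without it. Counts of the wider lists that use SPONT are given with all 4 libraries only. In bulk samples of this kind, fewer cells of a type and less RNA per cell cannot be told apart. The labels were checked with marker genes. Summed ESC markers were 1466–1526 CPM in ESC and at most 3.49 CPM in any other library, and summed astrocyte markers were 680.5–726 CPM in NPC P15 and 6904–10609.8 in SPONT. With CNTF they were 22008–23041 CPM, and healthy host astrocytes held 21046–27702 CPM.

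**Figure D1:**
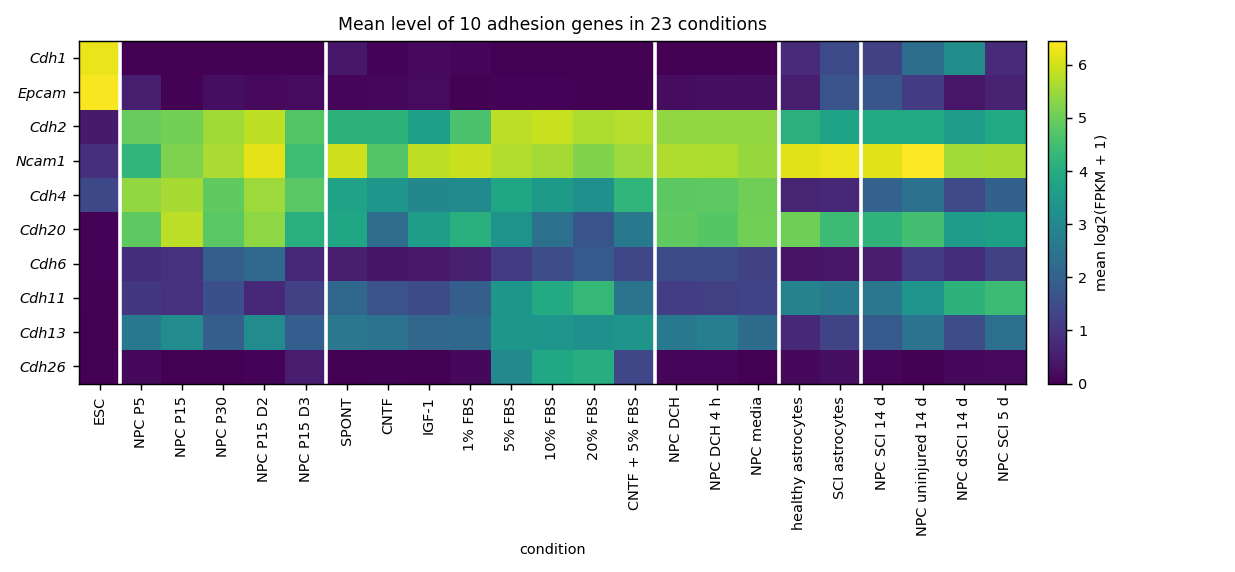
Mean level of each of the 10 adhesion genes (rows) in the 23 conditions (columns), as log2(FPKM + 1), shown by colour. Cdh1 and Epcam are high in ESC alone among the cultures, the neural cadherins and Ncam1 fill every NPC-derived condition, and Cdh26 stands out from 5% FBS upward.

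The first comparison asks which adhesion genes ESC and the NPC made from them carried. ESC held the epithelial pair and NPC the neural set. Cdh1 measured 317, 383, 328 and 357 CPM in the 4 ESC libraries and 0, 0, 0.0620 and 0.225 CPM in the 4 NPC P15 libraries, where it rested on 0, 0, 4 and 10 reads. Epcam measured 174, 177, 186 and 189 CPM in ESC and was read in 1 of the 4 NPC P15 libraries, at 0.186 CPM. For both genes the groups did not overlap and the NPC values lay near the limit of counting. In the other direction, Cdh2 rose from 3.18 ± 0.373 CPM in ESC to 268 ± 13.6 in NPC P15, and Ncam1 from 7.25 ± 1.84 to 309 ± 15.8 CPM. Cdh4 went from 11.9 ± 1.25 to 347 ± 11.9 CPM, Cdh20 from 0.187 to 221 ± 7.45 CPM and Cdh13 from 0.146 to 85.9 ± 2.54 CPM. Cdh6 and Cdh11 also went up but stayed low, at 8.02 ± 1.17 and 7.99 ± 1.20 CPM in NPC P15. Cdh26 had 0 counts in every ESC and NPC P15 library. Per length, Epcam (82.7 FPKM) and Cdh1 (75.8 FPKM) made up 51.3 ± 2.23% and 46.9 ± 2.20% of the summed FPKM of the 10 genes in ESC, whereas in NPC P15 the sum was shared by Cdh20 (30.3%), Cdh4 (26.4%), Ncam1 (19.7%) and Cdh2 (18.3%). The sum itself was 161 ± 7.80 FPKM in ESC and 181 ± 6.25 FPKM in NPC P15. Because the genes were chosen for this exchange, it is a description with no test. Of the 9 genes that passed the filter on low counts, 7 were higher and 2 lower in NPC P15, where 67.2% of all 15350 genes tested were called, and nothing is read from that count.

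Wider lists of adhesion genes were counted over every gene that passed the filter, so genes at or near 0 in 1 group are included. Such a gene passed through the other group and could only be called higher there. The direction of these list counts is therefore a description. Of the epithelial junction partners of Cdh1, 24 were tested, 1 of them higher and 20 lower (median log2FC -5.55, over all genes -0.097), from the epithelial splicing regulator Esrp1, at 35.3–44.4 CPM in ESC and 0 counts in NPC P15, to Nectin3 (log2FC 1.02 ± 0.12). Of the neural cell adhesion molecules and the enzymes that add polysialic acid to Ncam1, 15 were tested, 9 of them higher and 3 lower (median log2FC 2.40, over all genes -0.097), led by the L1-family molecule Chl1 at 0.112–0.172 CPM in ESC and 89.5–113 CPM in NPC P15. Of the catenins and their linkers, 9 were tested, 4 of them higher and 4 lower (median log2FC -0.023, over all genes -0.097), with Ctnnd2, the neural delta-catenin, at log2FC 6.84. Of the other cadherins, 3 were higher and 2 lower of 7 tested, with P-cadherin (Cdh3) at 45.8–53.3 CPM in ESC and 0 counts in NPC P15, and Cdh19 at 0–4 reads per library in ESC and 2.77–5.60 CPM in NPC P15. Over all genes 67.2% were called, 32.2% higher and 34.9% lower, and the counts for the catenins and the other cadherins lie near these shares.

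**Figure D2:**
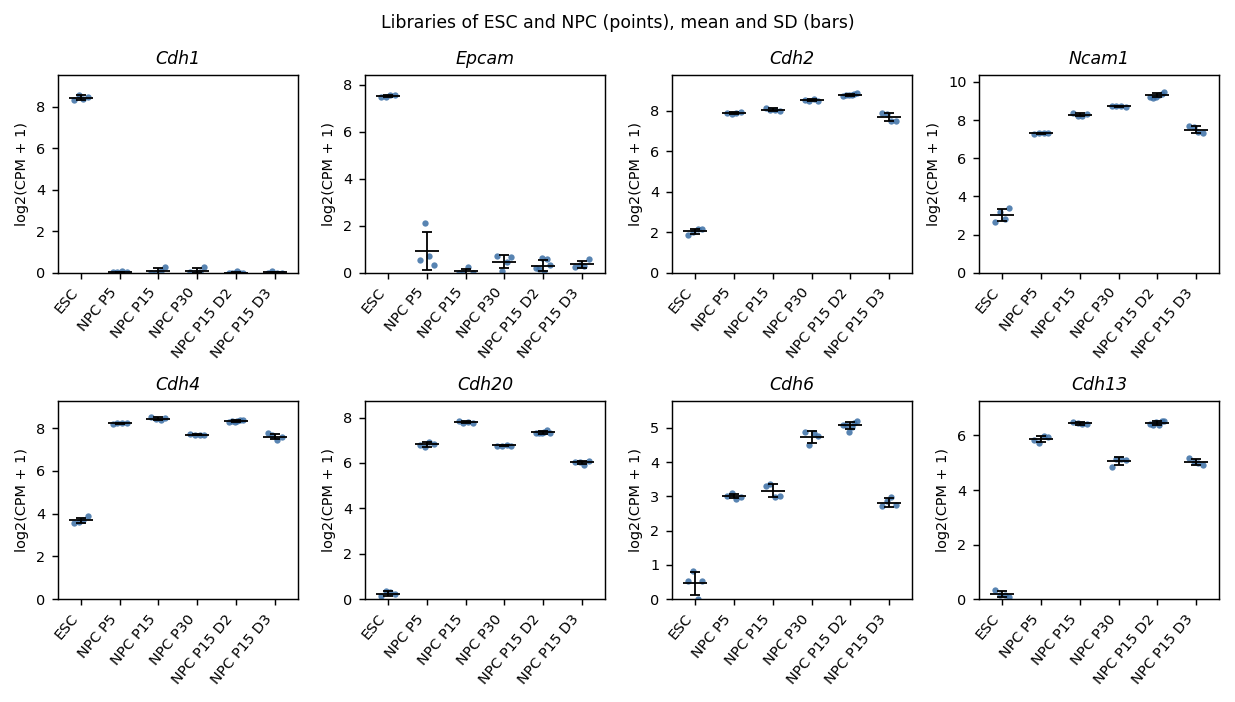
Levels of 8 adhesion genes in ESC and in the 5 NPC cultures, as log2(CPM + 1), with 1 point per library, the mean as a bar and the SD as whiskers. Cdh1 and Epcam stand high in ESC and near 0 in NPC, and the neural genes differ among the NPC cultures by passage and derivation.

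The start-site regions of the genes were compared where a reference sequence was given. RefSeq promoters (GRCm38.p6, windows of 300 bases that end shortly after the start) matched 4 of the 10 genes, and 3 are printed because their genes mark the ends of the patterns described here: Epcam (chr17:87635729-87636028, plus strand, high in ESC), Cdh20 (chr1:104768270-104768569, plus strand, high in NPC and low in serum) and Cdh26 (chr2:178430265-178430564, plus strand, present with serum). Capitals mark 2 kinds of words. One is CAGGTG, the E-box that Snail and Zeb repressors of epithelial genes read, which shows on the opposite strand as CACCTG. The GC box is GGGCGG, and its opposite strand shows CCGCCC.
Epcam: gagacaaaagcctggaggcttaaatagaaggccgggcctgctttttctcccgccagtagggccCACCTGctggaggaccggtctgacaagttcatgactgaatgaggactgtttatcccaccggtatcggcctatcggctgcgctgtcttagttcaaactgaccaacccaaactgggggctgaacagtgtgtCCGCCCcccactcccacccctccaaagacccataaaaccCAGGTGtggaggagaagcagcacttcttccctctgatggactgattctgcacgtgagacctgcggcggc
Cdh20: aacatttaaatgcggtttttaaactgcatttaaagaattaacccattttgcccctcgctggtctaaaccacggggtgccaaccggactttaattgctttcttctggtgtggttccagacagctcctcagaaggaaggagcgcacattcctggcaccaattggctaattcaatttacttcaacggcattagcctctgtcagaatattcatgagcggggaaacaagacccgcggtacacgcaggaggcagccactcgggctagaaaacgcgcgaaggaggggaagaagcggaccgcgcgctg
Cdh26: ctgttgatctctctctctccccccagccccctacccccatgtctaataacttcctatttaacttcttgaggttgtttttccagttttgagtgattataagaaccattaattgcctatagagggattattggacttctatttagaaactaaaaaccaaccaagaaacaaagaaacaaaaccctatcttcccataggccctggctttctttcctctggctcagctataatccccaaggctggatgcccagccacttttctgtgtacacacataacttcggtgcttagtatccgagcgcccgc
The Epcam window held CACCTG 187 bases and CAGGTG 19 bases before the start, with CCGCCC 58 bases before it. The Cdh20 and Cdh26 windows held none of these words and no TATAAA or TTTATA. The Cdh6 window (chr15:13173626-13173925, minus strand) held 2 overlapping GGGCGG words. Over 32851 promoters of the same length, 20.2% held CAGGTG or CACCTG, 35.7% held GGGCGG or CCGCCC and 13.6% held TATAAA or TTTATA. The Cdh20 window had 18 CpG and the Cdh26 window 4, where the median promoter had 7. A match is a description of letters and not a bound site.

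The next comparison asks whether the NPC signature held across passages and derivations. Between P5 and P30 the genes shifted apart within the neural set. Ncam1 measured 152, 158, 159 and 159.8 CPM at P5 and 426, 419.9, 427 and 409 CPM at P30 (log2FC 1.40 ± 0.04, adjusted p = 3.2e-16). Cdh6 measured 7.06, 7.60, 6.64 and 6.93 CPM at P5 and 28.4, 21.4, 27.6 and 26.4 CPM at P30 (log2FC 1.86 ± 0.13, adjusted p = 5.4e-10). The groups were far apart in both genes. Cdh2 (log2FC 0.59 ± 0.04, adjusted p = 3.5e-10) and Cdh11 (0.89 ± 0.14, adjusted p = 3.6e-05) were also higher at P30, while Cdh4 (-0.56 ± 0.04, adjusted p = 5.4e-10) and Cdh13 (-0.86 ± 0.09, adjusted p = 2.4e-07) were lower. Cdh20 did not pass the test (log2FC -0.07 ± 0.06, adjusted p = 0.37), nor did Epcam (log2FC -1.49 ± 0.92, adjusted p = 0.2), whose P5 values were 0.476, 3.30, 0.621 and 0.263 CPM with 1 library above the rest. In all, 4 of the 8 tested genes were higher and 2 lower, where 35.5% of all genes were called. Cdh26 was read at 0.309 ± 0.197 CPM at P5 and at 0 counts in all 4 P30 libraries, at least 6.03-fold higher at P5 with the floor set at 3 counts per library.

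NPC of the D3 derivation carried less of most neural adhesion genes than NPC P15. Cdh20 measured 230.2, 214, 223 and 215 CPM in NPC P15 and 65.2, 65.1, 59.5 and 65.9 CPM in D3 (log2FC -1.74 ± 0.07, adjusted p = 8.7e-10), with no overlap. Cdh13 (-1.40 ± 0.08, adjusted p = 2.4e-08), Cdh4 (-0.79 ± 0.07, adjusted p = 9.6e-07), Ncam1 (-0.72 ± 0.09, adjusted p = 1.1e-05) and Cdh2 (-0.31 ± 0.09, called at an adjusted p that rounds to 0.01) fell too, and Cdh11 rose (log2FC 0.65 ± 0.14, adjusted p = 0.0015). The Cdh2 call was lost without any 1 library other than D3 replicate 1 or 2 (log2FC -0.34 to -0.25, adjusted p = 0.016–0.038). Cdh26, at 0 counts in NPC P15, was read at 1.88, 1.14, 1.64 and 0.666 CPM in the 4 D3 libraries, which is at least 28.0-fold higher. Of 7 tested genes 1 was higher and 5 lower, beside 48.0% of all genes called. Summed oligodendrocyte-lineage markers were 7265–7482 CPM in NPC P15 and 1957–2360.0 in D3, and their part in the lower Cdh20 and Cdh13 was not tested.

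In the D2 derivation the changes went the other way for Cdh2 (log2FC 0.74 ± 0.04, adjusted p = 2.9e-11) and Ncam1 (1.01 ± 0.06, adjusted p = 1.1e-11), and Cdh6 measured 32.7 ± 2.46 CPM against 8.02 ± 1.17 (log2FC 2.02 ± 0.10, adjusted p = 2.9e-12). Cdh20 was lower (-0.45 ± 0.04, adjusted p = 3.2e-08). Thus 3 of 7 tested genes were higher and 1 lower, near the 55.9% called over all genes. The D2 libraries were single-read and the P15 libraries paired, so derivation and read type cannot be told apart. Oligodendrocyte-lineage sums were 2526–2876 CPM in D2, and their part was not tested. D2 and D3 were both set against the same 4 NPC P15 libraries. Of the neural adhesion list, 14 were tested, 6 of them higher and 2 lower (median log2FC 0.36, over all genes 0.0054) at P30 against P5 and 14 were tested, 0 of them higher and 7 lower (median log2FC -0.64, over all genes 0.018) in D3 against P15, with Chl1 at log2FC -5.27 in D3.

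The differentiation cultures ask what NPC express once EGF and FGF are lowered. The labels do not tell which NPC the cultures started from, and the differences depend on that choice. Cdh4 was lower and Ncam1 and Cdh11 higher in SPONT than in NPC P15 and also than in D3, whereas Cdh2, Cdh6 and Cdh20 were called lower only against NPC P15. D2, whose libraries were single-read, was not used as a reference. Its Ncam1 was 625 ± 45.9 CPM, above the 540.2 ± 28.5 CPM of SPONT, so a rise of Ncam1 is not seen against D2. Cdh4 in D2 (322 ± 9.26 CPM) was above SPONT and Cdh11 (5.75 ± 1.47 CPM) below it. SPONT also had a low level of Cdh1. Cdh20 measured 56.9, 41.5, 57.6 and 56.8 CPM in SPONT (log2FC -1.93 ± 0.10, adjusted p = 3.4e-08 against NPC P15) and Cdh4 96.6, 58.8, 102 and 102 CPM (log2FC -1.83 ± 0.15, adjusted p = 9.5e-07). All 4 SPONT libraries were below every NPC P15 library for both genes, and replicate 2 was the lowest. Ncam1 measured 582, 518, 536 and 526 CPM (log2FC 0.93 ± 0.07, adjusted p = 4e-07), also without overlap. Cdh11 measured 39.0, 14.8, 39.2 and 40.7 CPM (log2FC 2.19 ± 0.28, adjusted p = 3.5e-05). Cdh1 measured 1.21, 1.40, 1.67 and 1.91 CPM, on 87–138 reads per library, above every NPC P15 library (0, 0, 4 and 10 reads) and far below the ESC level. Cdh2 (-0.81 ± 0.15, adjusted p = 0.0006) and Cdh6 (-0.81 ± 0.20, adjusted p = 0.0044) were lower. Per length, Cdh1 made up 2.00 ± 0.572% of the sum of Cdh1 and Cdh2 in SPONT, 99.5 ± 0.0685% in ESC and at most 0.0492% on average in any NPC culture. Of the 7 tested genes 2 were higher and 4 lower beside 57.2% of all genes. Without SPONT replicate 2, Cdh13 was called as well (log2FC -0.35 ± 0.07, adjusted p = 0.00071), with 57.5% of all genes. With D3 in place of P15, Cdh13 was called higher in SPONT (log2FC 0.90, adjusted p = 0.00019) and the calls for Cdh2, Cdh6 and Cdh20 were lost (log2FC -0.51, -0.48 and -0.20). Those for Cdh4, Cdh11 and Ncam1 were kept (log2FC -1.05, 1.52 and 1.64). Of the neural adhesion list 15 were tested, 9 of them higher and 2 lower (median log2FC 2.08, over all genes 0.085), with the axonal molecule Cntn2 at 1.93–2.77 CPM in SPONT and 0.0250–0.103 in NPC P15 and Chl1 at 0.0483–0.138 and 89.5–113 CPM. Of the epithelial list 16 were tested, 4 of them higher and 2 lower (median log2FC 0.63, over all genes 0.085), led by the keratin Krt8 at 1.27–1.85 CPM in SPONT and 0 counts in NPC P15.

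CNTF, IGF-1 and 1% FBS were each compared with the same 4 SPONT libraries, so their values stand side by side and are not independent. With CNTF, a cytokine used to make astrocytes, Ncam1, Cdh20 and Cdh1 fell. Ncam1 measured 218, 206, 224 and 237 CPM with CNTF, below every SPONT library (log2FC -1.27 ± 0.07, adjusted p = 4.8e-07). Cdh20 measured 14.6, 16.5, 17.03 and 16.0 CPM with CNTF (log2FC -1.71 ± 0.11, adjusted p = 1.4e-06). Cdh1 measured 0.0668, 0.229, 0.217 and 0.212 CPM (log2FC -3.09 ± 0.34, adjusted p = 6e-05). None of these groups overlapped with SPONT. Cdh2 was at 138 ± 11.0 CPM with CNTF and 139.9 ± 33.8 CPM in SPONT (log2FC 0.00 ± 0.15, adjusted p = 0.99). Thus 3 of the 9 tested genes were called, all of them lower, with 19.9% of all genes called. Per length the summed level of the 10 genes was 63.3 ± 2.88 FPKM with CNTF and 115 ± 13.7 FPKM in SPONT. Without SPONT replicate 2, Cdh4, Cdh6, Cdh11 and Cdh13 joined the genes called lower, Cdh11 with log2FC -1.03 ± 0.08, adjusted p = 9.6e-07, so that 7 were lower where 40.2% of all genes were called. Of the neural adhesion list 15 were tested, 2 of them higher and 3 lower (median log2FC -0.18, over all genes -0.013), with Chl1 at 2.51–3.29 CPM with CNTF and Alcam at log2FC -2.03.

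With IGF-1, a growth factor, Cdh1 measured 0.480, 0.550, 0.799 and 0.423 CPM (log2FC -1.40 ± 0.26, adjusted p = 0.0075) and Cdh4 52.4, 54.3, 44.4 and 51.4 CPM (log2FC -0.78 ± 0.15, adjusted p = 0.0074). Ncam1, at 484 ± 49.5 CPM, did not pass the test (log2FC -0.11 ± 0.07, adjusted p = 0.24). These 2 of 9 tested genes were lower, with 6.55% of all genes called. The Cdh1 call was lost without any 1 library other than SPONT replicate 1 or 2 (adjusted p = 0.022–0.031), and the Cdh4 call without any other than SPONT replicate 2 (0.014–0.033). Without SPONT replicate 2 alone, 6 genes were lower, now with Cdh2, Cdh11, Cdh13 and Cdh20 (Cdh11 at log2FC -1.23 ± 0.12, adjusted p = 2.9e-05), where 37.9% of all genes were called. With 1% FBS, Cdh1 measured 0.311, 0.162, 0.553 and 0.575 CPM (log2FC -1.91 ± 0.35, adjusted p = 0.004) and Cdh4 52.8, 55.9, 48.7 and 56.9 CPM (log2FC -0.73 ± 0.15, adjusted p = 0.0066), and 2 of 8 tested genes other than Cdh26 were lower beside 8.78% of all genes. The Cdh1 call was lost without SPONT replicate 3 or 4 or 1% FBS replicate 1 (log2FC -1.87 to -1.80), and the Cdh4 call without any library other than SPONT replicate 2 (-0.75 to -0.66). Without SPONT replicate 2, Cdh11 and Cdh13 were lower as well, with 13.0% of all genes called.

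The serum series asks how the genes follow the dose of FBS from 1 to 20%. Cdh11 and Cdh6 climbed, Cdh20 fell and Cdh26 went from near 0 to one of the more abundant cadherins. Cdh26 had at most 2 reads in any SPONT library and measured 0.414, 0.390, 0.198 and 0.254 CPM at 1% FBS, at least 7.26-fold higher than SPONT. It measured 17.1, 10.7, 29.5 and 39.3 CPM at 5%, 37.8, 38.8, 42.0 and 43.2 CPM at 10% and 44.5, 47.9, 45.4 and 47.0 CPM at 20% FBS. The 5% libraries were the most spread, and the 10 and 20% libraries did not overlap. Per length, Cdh26 reached 15.3 FPKM at 20% FBS, 10.8 ± 0.626% of the sum of the 10 genes, beside 49.5 FPKM for Cdh2, 36.9 for Ncam1 and 18.6 for Cdh11. No test is given for this gene over serum.

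The remaining genes were tested for a trend per doubling of FBS. Cdh11 measured 28.2, 24.7, 19.8 and 29.5 CPM at 1%, 81.5, 68.7, 83.9 and 119.9 at 5%, 132, 80.7, 141 and 179 at 10% and 156, 155, 158 and 193.8 at 20% FBS (log2FC per doubling 0.64 ± 0.05, adjusted p = 1.3e-08). Cdh6 went from 4.33 ± 0.485 to 22.8 ± 1.51 CPM (log2FC per doubling 0.56 ± 0.04, adjusted p = 2.3e-09). The 20% libraries lay above every 1% library for both genes. Cdh20 measured 61.5, 58.8, 58.6 and 79.5 CPM at 1%, 33.9, 37.5, 45.4 and 29.4 at 5%, 14.0, 18.3, 18.3 and 18.0 at 10% and 9.01, 9.91, 9.22 and 7.42 at 20% FBS (log2FC per doubling -0.65 ± 0.05, adjusted p = 8.3e-09). The 1, 5, 10 and 20% groups were in this order without overlap for Cdh20. Cdh2 (0.28 ± 0.06, adjusted p = 0.00041) and Cdh13 (0.31 ± 0.06, adjusted p = 0.00022) rose per doubling and Ncam1 fell (-0.15 ± 0.02, adjusted p = 3.6e-06). For Cdh2 the means were 187, 451, 482 and 399 CPM, and for Cdh13 39.9, 109, 107 and 95.1 CPM, so both stepped up between 1 and 5% and were no higher at 20% than at 5%. Cdh4 (log2FC per doubling 0.06 ± 0.06, adjusted p = 0.38) did not pass the test. Its means were 53.6, 95.3, 76.1 and 62.2 CPM, and its 5% libraries (74.2–111 CPM) lay above its 1% libraries (48.7–56.9 CPM). A trend per doubling cannot show such a rise and fall. Cdh1 was at most 0.575 CPM at 1% and 0.199 CPM at 20% FBS. Of 7 tested genes 4 rose and 2 fell, beside 57.3% of all genes. Of the catenins and linkers 10 were tested, 7 of them higher and 1 lower (median log2FC 0.14, over all genes 0.0014) and of the other cadherins 7 were tested, 4 of them higher and 3 lower (median log2FC 0.11, over all genes 0.0014).

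Genes used as markers of other cell types moved with serum too. The paper reports myofibroblast-like phenotypes in NPC at higher serum, with Col1a1, a gene of the fibroblast sum, among those raised. The sums are levels of genes and not counts of other cells. Summed fibroblast and meningeal markers were 7.65–9.91 CPM in SPONT, 13.7–66.9 at 1%, 133–429.9 at 5%, 188–309 at 10% and 418–529 at 20% FBS. Summed endothelial markers were 1.67–2.41, 15.0–36.4, 53.1–65.4 and 63.9–69.4 CPM over the same doses. Their part in the rise of Cdh6, Cdh11 and Cdh26 was not tested. Summed oligodendrocyte-lineage markers went the other way, from 2396–2728 CPM at 1% to 471–526 at 20% FBS, as did summed astrocyte markers, from 16724–22378 to 4231–4836 CPM. Their part in the fall of Cdh20 and Ncam1 was not tested.

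**Figure D3:**
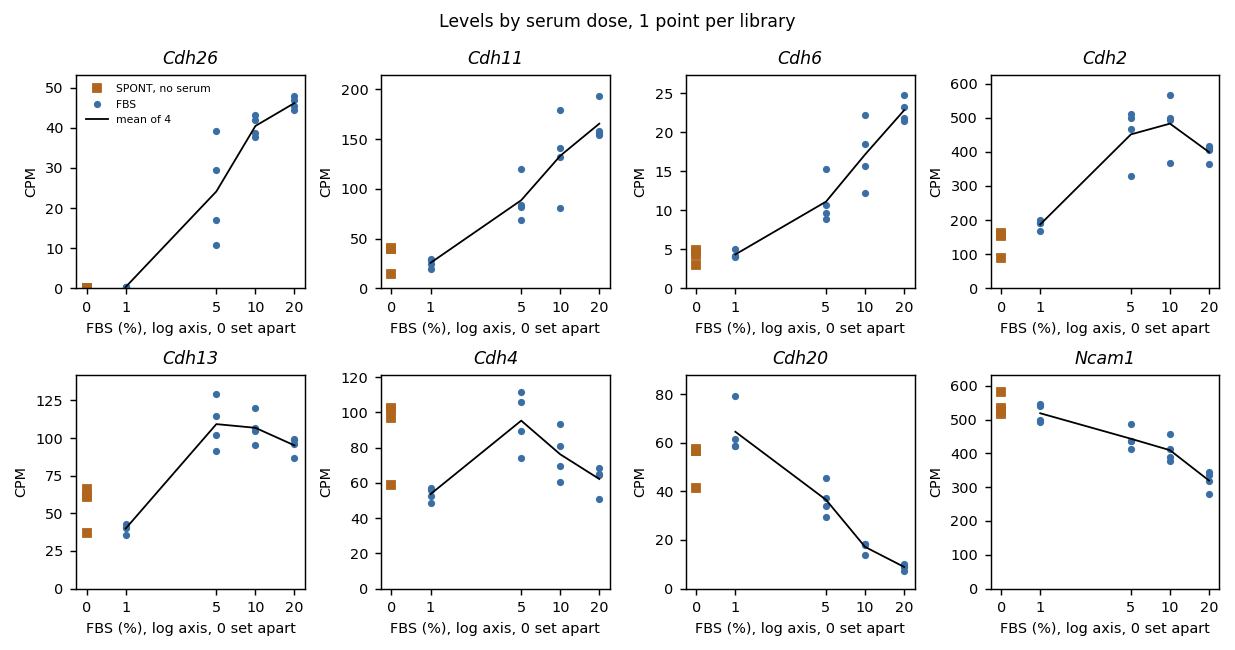
Levels of 8 adhesion genes in CPM against FBS in percent on a log axis, with SPONT (no FBS) set apart at the left, 1 point per library and a line through the means of 4. Cdh11, Cdh6 and Cdh26 climb with the dose, and Cdh20 falls from 58.6–79.5 CPM at 1% to 7.42–9.91 CPM at 20% FBS.

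CNTF given together with 5% FBS asks whether either agent sets the pattern. In CNTF with 5% FBS, Cdh26 measured 4.07, 5.30, 5.12 and 4.96 CPM, below each of the 4 libraries at 5% FBS alone. The 5% FBS libraries took part in the choice of this gene, so no test is given. Cdh11 measured 39.6, 41.4, 42.5 and 41.3 CPM, again below every 5% FBS library (log2FC -1.18 ± 0.15, adjusted p = 0.00031). Cdh20 was 20.3 ± 0.754 CPM against 36.5 ± 6.75 (log2FC -0.91 ± 0.10, adjusted p = 0.0002). Cdh2 stood at 424 ± 27.3 and 451 ± 83.2 CPM (log2FC -0.16 ± 0.12, adjusted p = 0.33) and did not pass the test. Of 7 tested genes 2 were called, both of them lower, with 23.3% of all genes called. Without 5% FBS replicate 4 there were 4 called genes, with Cdh4 (log2FC 0.46) and Cdh6 (0.53) higher. The share of all genes called in that refit is not given, so nothing is read from the larger count. Summed fibroblast and meningeal markers were 19.2–25.2 CPM with both agents and 133–429.9 CPM with 5% FBS alone, and their part was not tested.

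Against CNTF alone, adding 5% FBS raised all 7 genes other than Cdh26 that were tested, beside 72.8% of all genes called in either direction. Cdh6 rose most (log2FC 2.33 ± 0.12, adjusted p = 7.5e-12), followed by Cdh2 (1.51 ± 0.06, adjusted p = 1.8e-13), Cdh11 (1.01 ± 0.06, adjusted p = 1e-10), Cdh13 (0.89 ± 0.05, adjusted p = 6.3e-12), Cdh4 (0.80 ± 0.05, adjusted p = 1.5e-10) and Ncam1 (0.70 ± 0.05, adjusted p = 2.2e-09). Cdh20 was higher by a smaller step (log2FC 0.23 ± 0.06, adjusted p = 0.0024), lost without CNTF replicate 1 (log2FC 0.19, adjusted p = 0.012). Of the catenins and linkers 10 were tested, 8 of them higher and 0 lower (median log2FC 0.87, over all genes -0.0018), and of the epithelial partners 14 were tested, 6 of them higher and 4 lower (median log2FC 0.23, over all genes -0.0018), from F11r (log2FC 6.66) to Krt8 (-5.04).

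The effect of CNTF differed between cultures without and with 5% FBS for 3 of 7 tested genes, where 22.9% of all genes had an interaction. Ncam1 fell with CNTF from 540.2 to 221 CPM without serum and was 443 and 388 CPM with it (interaction log2FC 0.99 ± 0.09, adjusted p = 8.5e-07). Cdh20 had an interaction of 0.78 ± 0.15, adjusted p = 0.001 and Cdh4 of 0.72 ± 0.20, adjusted p = 0.0083. The Cdh4 call was kept only in the 3 of 16 refits without SPONT replicate 2 or 5% FBS replicate 3 or 4 (0.63 to 0.76 in the other 13). Cdh1 was at 0.0457 and 0.0759 CPM in the serum arms, near the floor, and was not tested. Without SPONT replicate 2, Cdh6 was also called and 38.1% of all genes.

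**Figure D4:**
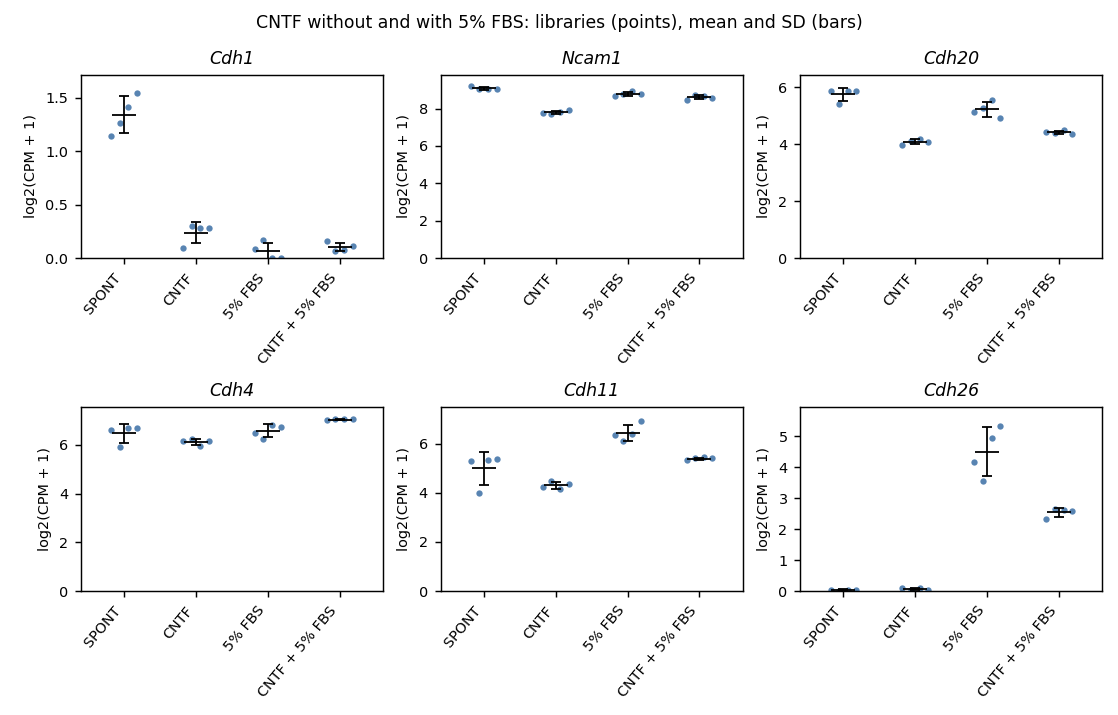
Levels of 6 adhesion genes, as log2(CPM + 1), in SPONT, CNTF, 5% FBS and CNTF with 5% FBS, with 1 point per library, the mean as a bar and the SD as whiskers (n = 4). CNTF lies below SPONT for Ncam1 and Cdh20, and CNTF with 5% FBS lies below 5% FBS alone for Cdh26 and Cdh11.

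The hydrogel controls ask what the handling before grafting did. Ncam1 measured 428, 426, 450.3, 419.6 and 448 CPM in NPC DCH and 371, 372, 384, 387 and 359 CPM in NPC media (log2FC 0.22 ± 0.04, adjusted p = 0.0012). Cdh13 measured 57.5 ± 5.85 and 43.1 ± 3.24 CPM (log2FC 0.42 ± 0.10, adjusted p = 0.0078). This call was lost without any 1 library other than NPC DCH replicate 5 (log2FC 0.39 to 0.46, adjusted p = 0.011–0.029). These 2 of 7 tested genes were higher, with 4.32% of all genes called. Between 4 h in DCH and none, 0 of 7 tested genes passed edgeR's test, which called 0.32% of all genes. Of the 7, 0 had an unadjusted p under 0.05 and 0 were called by DESeq2.

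Grafts recovered at 14 days were set against the same 5 NPC DCH libraries. Ncam1 and Cdh11 were higher in the grafts and Cdh2 and Cdh4 lower, and Cdh1 was read in the grafts but hardly in NPC DCH. Cdh1 measured 13.0, 17.1, 8.01, 40.5 and 26.5 CPM in grafts in uninjured cord and 0.0113–0.0545 CPM, 1–4 reads per library, in NPC DCH. In grafts in SCI it measured 3.17, 7.77, 2.54, 4.13 and 21.9 CPM. Every graft library was above every NPC DCH library, and replicate 5 in SCI stood above its group. Cdh4 fell from 198 ± 9.07 CPM in NPC DCH to 32.3 ± 9.71 in uninjured cord (log2FC -2.60 ± 0.18, adjusted p = 1.4e-07) and to 23.2 ± 7.25 in SCI (-2.75 ± 0.21, adjusted p = 1.7e-07). Cdh2 fell from 334 ± 10.8 to 117 ± 12.6 CPM in uninjured cord (-1.49 ± 0.09, adjusted p = 5.6e-08) and 119 ± 38.3 in SCI (-1.18 ± 0.16, adjusted p = 2.6e-05).

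Cdh11 measured 7.70, 11.0, 15.7, 13.1 and 9.86 CPM in NPC DCH, 79.4, 96.5, 60.0, 83.5 and 100.4 CPM in uninjured cord (log2FC 2.91 ± 0.23, adjusted p = 3.4e-07) and 59.6, 33.3, 34.6, 36.0 and 70.7 CPM in SCI (2.40 ± 0.30, adjusted p = 1.4e-05). Ncam1 was 435 ± 13.8, 758 ± 121 and 627 ± 131 CPM in the same order (log2FC 0.82 ± 0.10, adjusted p = 2e-05 and 0.85 ± 0.11, adjusted p = 1.9e-05). Cdh6 passed the test only in SCI (-1.67 ± 0.38, adjusted p = 0.0017), and the difference between the cords was not called (log2FC -1.22 ± 0.44, adjusted p = 0.082). Epcam measured 10.4, 5.53, 3.74, 11.8 and 0.247 CPM in grafts in SCI and 0–1.61 in NPC DCH, where 2 of 5 libraries had 0 reads. Of 7 tested genes, 2 were higher and 2 lower in uninjured cord, beside 53.7% of all genes, and 2 were higher and 3 lower in SCI, beside 51.6%. Cdh20 depended on the reference. Against NPC DCH it was not called in uninjured cord (log2FC -0.33, adjusted p = 0.052) or SCI (-0.36, adjusted p = 0.018). With NPC media as the reference it was called lower in both (-0.52, adjusted p = 0.0039 and -0.57, adjusted p = 0.00076), and the 9 calls against NPC DCH were kept. Of the neural adhesion list 15 were tested, 11 of them higher and 1 lower (median log2FC 2.78, over all genes 0.12) in uninjured cord, led by L1cam at 40.2–114 CPM against 0–0.295 in NPC DCH, and 15 were tested, 11 of them higher and 1 lower (median log2FC 2.11, over all genes 0.15) in SCI. Of the other cadherins 10 were tested, 5 of them higher and 0 lower (median log2FC 2.95, over all genes 0.12) in uninjured cord. They were led by the neuronal Cdh18 at 1.02–20.0 CPM and 0 counts in NPC DCH. In SCI 8 were tested, 3 of them higher and 0 lower (median log2FC 1.08, over all genes 0.15). They were led by the endothelial Cdh5 at 6.14–23.1 CPM and 0–2 reads in NPC DCH. Genes at or near 0 in NPC DCH passed the filter through the grafts and could only be called higher. The direction of these list counts is therefore a description.

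Markers of other cells were present in the recovered tissue. Summed fibroblast and meningeal markers were 8.42–11.0 CPM in NPC DCH, 952–3012 in uninjured cord and 642–2563 in SCI. Summed myeloid markers were 0.177–1.15, 96.0–481 and 130.5–545 CPM, and endothelial markers 1.20–2.98, 34.5–318 and 22.9–67.3 CPM. Summed neuron markers were 1.64–3.92, 741–3507 and 102–365 CPM, highest in the uninjured cord. Ncam1 in CPM was also highest there, but after TMM scaling its rise over NPC DCH was no larger there than in SCI. The part of neurons in the Ncam1 and neural adhesion list results was not tested. The SCI library with the highest Cdh1, replicate 5, also had the highest fibroblast and myeloid sums of its group, and the part of these cells in the Cdh1 and Cdh11 results was not tested. Summed ESC markers were at most 3.35 CPM in these grafts, against 1466–1526 CPM in ESC.

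No difference among these genes was called with injury of the host cord. For SCI against uninjured cord, the test on simulated data recovered 10 of 100 genes changed by a log2FC of 1. Of genes changed by a log2FC of 2 it recovered 55 of 100. A gene that was not called is therefore not shown to be unchanged. Between SCI and uninjured cord 0 of 9 tested genes passed edgeR's test, which called 4.64% of all genes. Of the 9, 1 had an unadjusted p under 0.05 and DESeq2 called 0. Between dSCI and uninjured cord 0 of 8 passed edgeR's test, which called 4.19% of all genes. Of the 8, 5 had an unadjusted p under 0.05 and DESeq2 called 1, Cdh11. The shares of all genes under that unadjusted p or called by DESeq2 are not given. These counts therefore cannot be set against them. In CPM, Cdh6 did not overlap between SCI (1.18–6.43) and uninjured cord (8.68–16.8). Between dSCI and uninjured cord, Cdh13 (14.4–31.8 and 43.7–55.7 CPM) and Ncam1 (318–467 and 578–915 CPM) did not overlap. Neither was called by edgeR (log2FC -0.91 ± 0.28, adjusted p = 0.056 and -0.61 ± 0.21, adjusted p = 0.089). CPM is without TMM scaling, and the share of all genes without overlap is not given. Nothing is therefore read from these gaps. Cdh11 measured 323, 156, 121, 127 and 100.2 CPM in dSCI (log2FC 1.18 ± 0.28, adjusted p = 0.017 by edgeR, 1.21 with adjusted p = 0.0004 by DESeq2). Cdh1 measured 113, 35.6, 27.2, 51.1 and 10.2 CPM in dSCI (log2FC 1.31 ± 0.53, adjusted p = 0.14), the largest SD of this gene in the 23 conditions (39.3 CPM). Without dSCI replicate 5, Cdh13 was called (log2FC -1.18, adjusted p = 0.0088). Replicate 1 of dSCI was the highest for both genes and had the highest fibroblast and meningeal sum in a range of 4176–19319.6 CPM, and the part of these cells was not tested. Per length Cdh1 made up 23.03 ± 11.0% of Cdh1 plus Cdh2 in uninjured cord, 11.1 ± 11.4% in SCI and 43.4 ± 24.5% in dSCI.

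Between 14 and 5 days in SCI, Cdh11 was lower at 14 days (59.6, 33.3, 34.6, 36.0 and 70.7 CPM) than at 5 days (155, 287, 298, 113 and 127 CPM, log2FC -1.85 ± 0.34, adjusted p = 0.0041). The call was lost without 14-day replicate 1, 2, 3 or 4 or 5-day replicate 2 or 3 (log2FC -1.89 to -1.66, adjusted p = 0.012–0.016). It was 1 of 9 tested genes, beside 5.3% of all genes. The 5-day libraries were single-read and the 14-day libraries paired, so time and read type cannot be told apart. Fibroblast and meningeal sums were 4076–12378 CPM at 5 days and 642–2563 at 14 days, and their part was not tested.

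**Figure D5:**
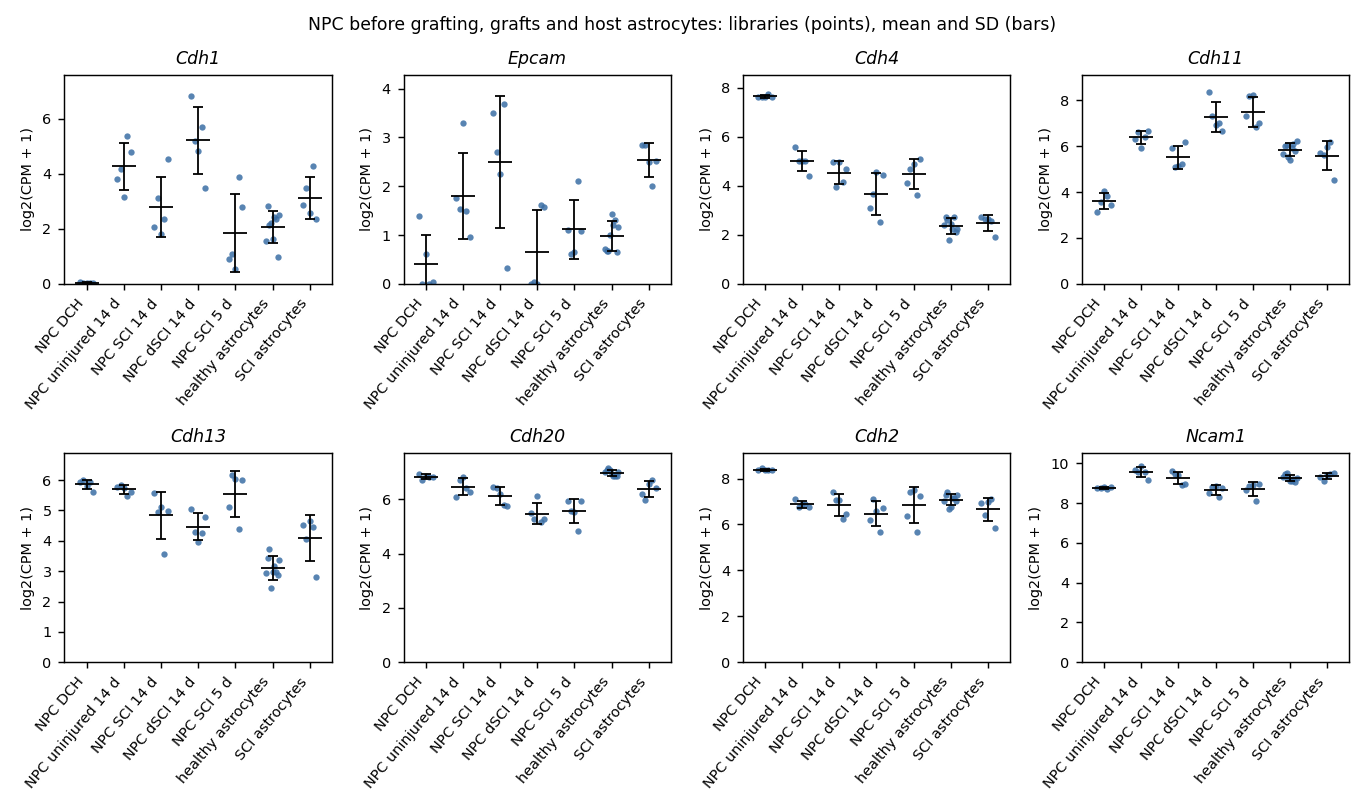
Levels of 8 adhesion genes, as log2(CPM + 1), in NPC DCH, in grafts and in host astrocytes, with 1 point per library, the mean as a bar and the SD as whiskers (n = 5, or 9 for healthy astrocytes). Cdh4 drops from NPC DCH to every graft and is lowest in host astrocytes, and Cdh1 ranges from 10.2 to 113 CPM in dSCI.

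Host astrocytes give the background of the same cord. In healthy astrocytes Ncam1 (70.6 FPKM) made up 55.0% of the sum of the 10 genes, followed by Cdh20 (31.4 FPKM, 24.6%) and Cdh2 (16.9 FPKM, 13.1%). After SCI, Epcam rose, from a lowest, median and highest value of 0.576, 1.00 and 1.68 CPM in 9 healthy libraries to 6.13, 6.13, 4.66, 3.00 and 4.69 CPM in 5 SCI libraries (log2FC 2.08 ± 0.30, adjusted p = 1.3e-05). The groups did not overlap. Cdh20 fell from 115, 126 and 142 CPM (lowest, median and highest) to 73.3, 61.6, 94.5, 105 and 84.1 CPM (log2FC -0.77 ± 0.11, adjusted p = 1.3e-05), also without overlap. Cdh13 rose (log2FC 0.98 ± 0.25, adjusted p = 0.0029) and Cdh2 fell (-0.57 ± 0.16, adjusted p = 0.0057). The Cdh13 call was lost without SCI astrocyte replicate 1 or 3 (log2FC 0.83 to 0.90) and the Cdh2 call without replicate 2 or 5 (-0.51 to -0.44). Cdh1 did not pass (log2FC 1.13 ± 0.36, adjusted p = 0.014). In all, 2 of 10 genes were higher and 2 lower beside 41.1% of all genes. Myeloid sums were 7.62–13.4 CPM in healthy and 68.1–295 in SCI astrocytes, oligodendrocyte-lineage sums 4578–7045 and 16365–25251 CPM, fibroblast and meningeal sums 137–219 and 470.4–989.9 CPM and Schwann cell sums 1456–2925 and 4486–7942 CPM, and their part was not tested. Of the epithelial list 19 were tested, 5 of them higher and 2 lower (median log2FC 0.48, over all genes 0.018), with Krt8 at 0–0.133 CPM in healthy and 0.405–0.460 in SCI astrocytes, and of the neural adhesion list 15 were tested, 6 of them higher and 3 lower (median log2FC 0.26, over all genes 0.018), with Mcam at 2.61.

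Grafted cells in uninjured cord differed from healthy host astrocytes in 6 of 9 tested genes, 4 higher and 2 lower, where 49.7% of all genes were called. Cdh4 measured 47.3, 31.0, 31.5, 31.4 and 20.1 CPM in the grafts against 2.44–5.65 CPM in the 9 healthy libraries (median 4.21, log2FC 2.38 ± 0.20, adjusted p = 2e-08). Cdh13 measured 53.8, 55.7, 52.8, 43.7 and 48.3 against 4.42–12.4 CPM (median 6.83, log2FC 2.15 ± 0.18, adjusted p = 1.7e-08). Neither pair of groups overlapped. Cdh1 (2.06 ± 0.38, adjusted p = 0.00015) and Cdh6 (1.63 ± 0.30, adjusted p = 0.00014) were higher in grafts. Cdh20 (-1.06 ± 0.11, adjusted p = 1.7e-07) and Cdh2 (-0.77 ± 0.12, adjusted p = 2.4e-05) were lower. Mean CPM in grafts and healthy astrocytes was 89.1 and 126 for Cdh20 and 117 and 136 for Cdh2. For both genes the log2FC after TMM scaling was a larger fall than these means give. Cdh2 libraries overlapped, at 106–137 CPM in grafts and 102–168 CPM in healthy astrocytes. Fibroblast and meningeal sums were 952–3012 CPM in these grafts and 137–219 in healthy astrocytes, neuron sums 741–3507 and 138–211 CPM, endothelial sums 34.5–318 and 4.60–8.52 CPM and myeloid sums 96.0–481 and 7.62–13.4 CPM, and their part was not tested. In SCI, only Cdh4 of 9 tested genes was called between grafts and host astrocytes, 30.1, 14.6, 29.9, 16.7 and 24.6 against 5.66, 5.19, 5.24, 4.86 and 2.77 CPM (log2FC 2.26 ± 0.27, adjusted p = 8.8e-05), where 14.6% of all genes were called. The change with injury differed between grafts and hosts for Cdh13 (interaction log2FC -1.49 ± 0.40, adjusted p = 0.0063) and Cdh20 (0.67 ± 0.19, adjusted p = 0.0085), 2 of 9 tested genes beside 16.8% of all genes. These calls were lost in 7 of 15 refits without 1 library for Cdh13 (-1.46 to -1.29) and in 8 of 15 for Cdh20 (0.57 to 0.67), each of the 3 groups holding libraries that ended them. Of the neural adhesion list 15 were tested, 6 of them higher and 7 lower (median log2FC 0.17, over all genes 0.062) in uninjured cord and 15 were tested, 1 of them higher and 7 lower (median log2FC -0.85, over all genes 0.0083) in SCI.

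Across the 23 conditions the order of the levels was gradual for most genes. Of the 22 pairs of neighbours in the order of means, libraries overlapped in 21 for Cdh11 and Epcam, in 20 for Cdh1 and Cdh13, in 19 for Cdh6 and Cdh26, in 17 for Cdh2, Cdh4 and Ncam1 and in 15 for Cdh20. Cdh1 was highest in ESC, followed by dSCI grafts and uninjured-cord grafts. Cdh2 was highest at 10% FBS (482 CPM), next to 5% FBS and NPC P15 D2, which overlapped with it. The order is by mean CPM without TMM scaling. Ncam1 was highest in grafts in uninjured cord (758 CPM), which overlapped with SCI astrocytes (656 CPM). Cdh20 was highest in NPC P15 (221 CPM). Cdh4 was also highest in NPC P15 (347 CPM). Over the condition means of log2(CPM + 1), Pearson's r was -0.89 between Cdh1 and Cdh2, 0.85 between Cdh1 and Epcam and 0.89 between Cdh2 and Cdh13. These correlations are a description over 23 means, several of which share a cell source. Among 16864 genes, those closest to each member by the same measure were Ttn and Eps8l2 for Cdh1 (r = 0.98 each), Gipc2 and Myh3 for Epcam (0.96 each), Gpm6b and Nr3c1 for Ncam1 (0.94 each), Msl3 and Zfp521 for Cdh2 (0.95 each), Tug1 and Zfp266 for Cdh4 (0.97 each), Lrrk2 (0.92) and Pcdh18 (0.91) for Cdh6, Atrnl1 (0.95) and Rtn1 (0.93) for Cdh13, Pam (0.95) and Phactr2 (0.94) for Cdh11, Sowahc (0.95) and Brinp2 (0.92) for Cdh20 and Npvf (0.98) and Ttc22 (0.96) for Cdh26.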

How the data were processed

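Ribosome-bound RNA from 107 mouse libraries was sequenced, and the values used are the whole-number counts per Entrez gene that the authors deposited, 1 table per library with the same 27179 genes. According to the study's methods, the authors joined lanes and worked in Galaxy with Trimmomatic, HISAT2 on mm10 and featureCounts with default settings. Both mates were counted in 96 paired libraries and 1 read in 11 single-read libraries (NPC P15 D2 and NPC SCI 5 d), which differ in depth and cannot be compared by raw totals.

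From these counts CPM and FPKM (exon lengths of GENCODE M21, 21572 genes with a length) were computed as levels, and log2FC with edgeR 4.0.16 in R 4.3.3 (quasi-likelihood F test, TMM, filterByExpr with a minimum count of 10, Benjamini-Hochberg, called at 0.01), following the study's use of edgeR, TMM and that threshold. Only the groups of a comparison entered its fit. A member with a median count under 10 in a group compared was left out of the tests and counts of that comparison. So was Cdh26 in comparisons of serum. These rules were set after the values were seen. The rule on the median count was not applied to the wider lists or to NPC against ESC. SE was taken as the log2FC divided by the square root of F. A group at 0 was compared through a floor of 3 counts per library, which covers counting error only. Tests were tried on simulated data first. Alternatives were DESeq2 1.42.0, its size factors, a minimum of 50 counts, no filter beyond 1 count, the replicate number as a block, other reference NPC and leaving out 1 library in turn. Libraries of the larger groups, NPC P15 D2 and healthy astrocytes, were not left out in any comparison. The genes and the pathway and marker lists were chosen with earlier results of these data known. The genes named are the 10 members, the genes with the highest and lowest log2FC of each list, and the closest genes by correlation over 23 condition means with a mean of at least 1 CPM.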

Additional observations from a re-analysis of the deposited data

Results flagged for a closer look

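Single libraries that stood far from the rest of their group by Dixon's criterion were found in 18 of 177 pairs of a gene and a group with a mean of at least 1 CPM (10.2%), where chance gives about 1 in 20. SPONT replicate 2 accounts for 4 of them, lowest for Cdh2 (89.6 CPM, median of the others 155), Cdh4 (58.8 CPM against 102), Cdh11 (14.8 CPM against 39.2) and Cdh20 (41.5 CPM against 56.9). In grafts, Cdh1 in SCI replicate 5 was at 21.9 CPM and Cdh11 in dSCI replicate 1 at 323 CPM, and Cdh20 in dSCI replicate 3 at 69.3 CPM. Epcam stood high in NPC P5 replicate 2 (3.30 CPM), in SCI 5 d replicate 4 (3.31 CPM) and in uninjured-cord replicate 3 (8.79 CPM). In the other cultures Cdh11 was high in 20% FBS replicate 4 (193.8 CPM), and Cdh20 was high in 1% FBS replicate 4 (79.5 CPM) and NPC P15 D2 replicate 5 (173 CPM) and low in 10% FBS replicate 1 (14.0 CPM) and NPC P15 D3 replicate 3 (59.5 CPM). Cdh4 was low in CNTF with 5% FBS replicate 1 (127 CPM) and in SCI astrocyte replicate 5 (2.77 CPM) and high in NPC DCH replicate 4 (214 CPM).

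A difference between groups under the same contrast was called 5 times. The effect of CNTF differed with 5% FBS by a log2FC of 0.72 for Cdh4, 0.78 for Cdh20 and 0.99 for Ncam1. The effect of injury differed between grafts and host astrocytes by -1.49 for Cdh13 and 0.67 for Cdh20.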

How the results depend on the processing

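No member changed direction in any call under any setting run on that comparison, with the exception of Cdh13 in SPONT, which was not called against NPC P15 (log2FC -0.48) and was called higher against D3 (0.90). DESeq2's own test kept all 72 calls of single genes and gave 5 called members for CNTF against SPONT (3 in edgeR), 5 for IGF-1 against SPONT (2), 4 for CNTF with 5% FBS against 5% FBS (2), 4 for NPC DCH against NPC media (2), 1 for dSCI against uninjured cord (0) and 3 for SCI at 14 against 5 days (1). DESeq2's size factors lost 1 call, Cdh2 in D3, and moved the median of all genes by up to 0.1159 (uninjured cord against NPC DCH). Replicate numbers shared between groups did not pair the samples: same-number correlations ran from -0.1951 to 0.2699, and in no comparison were all above 0.1. With the replicate block 10 of the 72 calls were lost, and the called members came to 0 for IGF-1, 1 for 1% FBS, 1 for NPC DCH against media, 0 for SCI at 14 against 5 days, 2 for SCI against healthy astrocytes and 0 for the interaction of injury and origin. For DESeq2 and the replicate block the share of all genes called is not given. A change in called members cannot be set against it.

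Leaving out 1 library gave 3–7 called members for CNTF against SPONT, 0–6 for IGF-1, 0–4 for 1% FBS, 2–4 for CNTF with 5% FBS against 5% FBS, 1–2 for NPC DCH against media, 0–1 for dSCI, 0–1 for SCI at 14 against 5 days, 2–4 for the interaction of CNTF and serum and 0–3 for that of injury and origin. It weakened 80 of 642 refitted calls. The highest counts for CNTF, IGF-1 and 1% FBS were those without SPONT replicate 2. There 40.2, 37.9 and 13.0% of all genes were called, against 19.9, 6.55 and 8.78% with it. These gains in members thus went with more calls over all genes. For refits without any library other than SPONT replicate 2, the share of all genes called is not given. Changes in called members there cannot be set against it. The Cdh6 call in SPONT was lost without NPC P15 replicate 1 or 2 or SPONT replicate 4 (log2FC -0.81 to -0.75). Without SCI graft replicate 5 the interaction of injury and origin also called Cdh1 (-3.23). Depth limited Cdh1, Epcam and Cdh26, whose levels in many cultures rested on a few reads, so that a lower level could not be told from 0.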
